A study of Arabidopsis thaliana with 6 samples.

Results

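Of the 13287 *Arabidopsis thaliana* genes that the array annotation names with a probe set of their own, 4 are described here: the alpha-expansin genes *EXPA4* (AT2G39700), *EXPA8* (AT2G40610) and *EXPA15* (AT2G03090), and *XTH16* (AT3G23730), which encodes a xyloglucan endotransglucosylase/hydrolase. They were taken by their symbols, each had 1 probe set, and all 4 passed the minimum signal described below. RNA came from inflorescences of *bp er fil-10* plants and of their *bp er* parent line, with 3 Affymetrix ATH1 arrays per genotype. Both genotypes carry the *bp-2* mutation, which removes function of the homeobox gene *BREVIPEDICELLUS*, and the *er* mutation in the receptor kinase gene *ERECTA*, in the Landsberg background. *bp er fil-10* carries in addition a point mutation in the YABBY gene *FILAMENTOUS FLOWER*, induced with EMS, described as a weak allele and backcrossed to *bp er*. It is a single mutant line, the labels call it *bp er fil* without an allele number, and no array of wild type or of *fil-10* alone was made. The plants of both genotypes were grown at 22 °C with days of 16 h and nights of 8 h, and no bud was older than floral stage 13.

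Plant cells grow when their wall yields to turgor. Alpha-expansins are small secreted proteins that loosen the wall at acid pH by weakening the contacts between cellulose and xyloglucan, without cutting the polymers. Enzymes of the XTH family cut xyloglucan chains and join them to other chains, so that the wall can be remodelled as it stretches or fixed once it has stretched. Each family has many members with expression patterns of their own, and in an inflorescence cells enlarge in stems, pedicels, petals, stamen filaments and carpels. The *fil-10* line was recovered in a screen for suppressors of the short, bent pedicels of *bp er*, and the arrays were made to find genes whose level depends on *FIL*.

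The values are MAS signals, hybridization intensities on a linear scale that the authors had scaled to the same target of 500 on every array. The median signal of an array was between 203 and 215 in *bp er fil-10* and between 193 and 211 in *bp er*. Probe sets that reached a signal of 100 on 3 or more of the 6 arrays, 14456 in number, were tested with limma on log2 signals, 2-sided, with Benjamini-Hochberg adjustment over all of them, and a probe set was called at an adjusted p under 0.05. A positive log2 difference means a higher mean in *bp er fil-10*. The signals of different probe sets depend on their own probes, so no gene's signal is set against another's as a level. The labels call the arrays of a genotype biological replicates, and it is not stated how many plants went into each. Replicate numbers are shared between the genotypes, and a fit that takes this number as a block is quoted where it changes a call. The genotypes were not checked against *FIL* and *BP* themselves, which have no named probe set here. Of the markers of the tissue, the tapetum gene *AMS* had signals of 99.1 to 136 in *bp er fil-10* and of 117 to 132 in *bp er*. *SPL*, the other gene kept from the tapetum and pollen wall list, was higher in *bp er fil-10*. It had 121.5 to 196.5 there and 45.4 to 104.8 in *bp er*, with no overlap, and was not called (limma adjusted p = 0.225). *SWEET9*, the sugar transporter of nectaries, had 369 to 777 in *bp er fil-10* and 842 to 2711 in *bp er*. *SWEET9* did not overlap between the genotypes and was called lower with the replicate block (limma adjusted p = 0.0217, and 0.225 without it), and its part in the results below was not tested. The floral meristem gene *UFO* and the stem cell gene *CLV3*, which mark few cells, stayed at or under 53.3 on every array.

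*EXPA8* was higher in *bp er fil-10*, and the genotypes did not overlap. Its signal was 1693.8, 1318.5 and 1681.8 on *bp er fil-10* arrays 1, 2 and 3, against 877.1, 815.7 and 1116.6 on the *bp er* arrays. The lowest *bp er fil-10* array thus lay above the highest *bp er* array, which was replicate 3. The means were 1565 ± 213 in *bp er fil-10* and 936.5 ± 159 in *bp er* (SD, n = 3 arrays each), and the log2 difference was 0.74 (SE 0.18, 95% interval 0.335 to 1.15), which is 1.68-fold with an interval of 1.26 to 2.22. With the same replicate numbers set against each other, *bp er fil-10* was higher in 3 of 3 pairs, by 0.95, 0.69 and 0.59 on the log2 scale. *EXPA8* did not pass limma's test (adjusted p = 0.14), and it did with the replicate block (adjusted p = 0.0351). Without both replicate 3 arrays, an alternative chosen after the data were seen, the difference was 0.82, with 2 arrays per genotype. *EXPA8* passed there (limma adjusted p = 0.0115). In that fit 690 of the 14456 probe sets were called higher and 696 lower, against 0 and 1 with all arrays and no block.

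*EXPA4* was lower in *bp er fil-10*, again with no overlap. The *bp er fil-10* arrays gave 869.9, 780.4 and 864.5, against 1350.6, 1082.7 and 1126.4 on the *bp er* arrays. The 3 *bp er fil-10* values lay close together, and the highest of them was below the lowest *bp er* value. The means were 838.3 ± 50.2 in *bp er fil-10* and 1187 ± 144 in *bp er* (SD, n = 3 arrays each), a log2 difference of −0.50 (SE 0.15, 95% interval −0.84 to −0.15), so that *bp er* was 1.41-fold higher. The pairs of equal replicate number differed by −0.635, −0.47 and −0.38, lower in 3 of 3. *EXPA4* passed limma's test neither without the block (adjusted p = 0.186) nor with it (adjusted p = 0.104), and without both replicate 3 arrays it had an adjusted p of 0.0576 and a difference of −0.55.

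**Figure D1:**
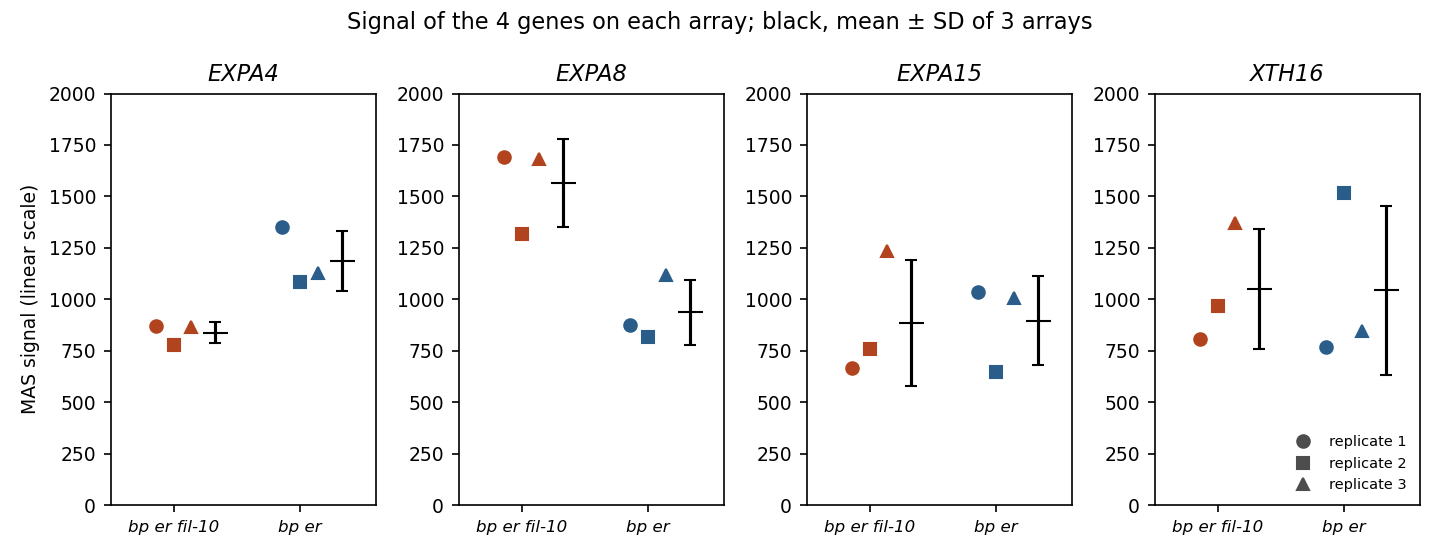
MAS signal (linear scale, vertical axis) of *EXPA4*, *EXPA8*, *EXPA15* and *XTH16* on each array of *bp er fil-10* (left in each panel) and *bp er* (right), with the marker shape giving the replicate number and the black bar the mean ± SD of 3 arrays. *EXPA4* lies at 780.4 to 869.9 in *bp er fil-10*, under all *bp er* arrays, *EXPA8* lies at 1318.5 to 1693.8, over all *bp er* arrays, and *EXPA15* and *XTH16* overlap.

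The means of *EXPA15* were close, with a wide interval. It had 665.3, 758.1 and 1233.8 in *bp er fil-10*, against 1034.7, 645.8 and 1004.2 in *bp er*. In *bp er fil-10* replicate 3 stood above the others, and in *bp er* replicate 2 stood below them, and the genotypes overlapped. The means were 885.7 ± 305 in *bp er fil-10* and 894.9 ± 216 in *bp er* (SD, n = 3 arrays each), a log2 difference of −0.036 (SE 0.27, limma adjusted p = 0.957). The 95% interval of the difference ran from −0.66 to 0.59, so that a difference as large as that of *EXPA4* in the same direction lies within it, while the estimate for *EXPA8* lies outside it. The pairs of equal replicate number differed by −0.64, 0.23 and 0.30.

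*XTH16* also had close means and arrays that were far apart. The signal was 806.3, 967.5 and 1371.5 in *bp er fil-10*, against 767.0, 1515.9 and 847.6 in *bp er*. The highest array was replicate 3 in *bp er fil-10* and replicate 2 in *bp er*. The means were 1048 ± 291 in *bp er fil-10* and 1044 ± 411 in *bp er* (SD, n = 3 arrays each), a log2 difference of 0.04 (SE 0.29, limma adjusted p = 0.957), with a 95% interval of 0.647-fold to 1.63-fold. The pairs differed by 0.07, −0.65 and 0.69, and the sign of the mean difference turned when replicate 3 was left out of both genotypes, where it was −0.29.

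Counted together, 0 of the 4 genes were called by limma without the block, where 0.00692% of all probe sets were, and 1 of 4 (*EXPA8*) with the block, where 3.74% were. At an unadjusted p under 0.05 in limma there were 2 of 4, *EXPA4* and *EXPA8*, against 16.8% of all probe sets. *EXPA8* was the 1 gene of the 4 with every *bp er fil-10* array above every *bp er* array, which held for 14.2% of all probe sets, and *EXPA4* the 1 gene with all of them below, which held for 9.13%. The 4 genes were chosen with earlier results of these data known, so no excess over these shares can be read from the counts. The spread within a genotype set the genes apart as well. The pooled SD of the log2 signal was 0.135 for *EXPA4* and 0.22 for *EXPA8*, and 13.4% and 40.2% of all probe sets kept had a smaller one. For *EXPA15* and *XTH16* it was 0.43 and 0.465, larger than in 80.1% and 83.8% of probe sets, where the median over all was 0.26.

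The opposite differences were also followed as a ratio of signals within each array, which does not depend on how the arrays were scaled to each other. The log2 ratio of *EXPA8* over *EXPA4* was 0.96, 0.76 and 0.96 in *bp er fil-10* and −0.62, −0.41 and −0.013 in *bp er*. Only the change of such a ratio between arrays can be read, not its sign on 1 array. The ratio was higher on every *bp er fil-10* array, by 1.24 on average, with a mean of 0.89 ± 0.12 in *bp er fil-10* and −0.35 ± 0.31 in *bp er* (SD, n = 3 arrays each). Neither gene overlapped between the genotypes, and their directions were opposite, so this ratio could not overlap either. Its permutation p was thus fixed by the values above and is no further evidence. An exact permutation test over the arrays, 2-sided, gave p = 0.1, the smallest that 3 arrays against 3 allow, so that no pair could pass 0.05. After adjustment over the 6 pairs of genes compared, the exact p was 0.3. The ratio of *EXPA8* over *EXPA15* also did not overlap, with 1.35, 0.80 and 0.45 in *bp er fil-10* and −0.24, 0.34 and 0.15 in *bp er*, a difference of 0.78 (exact permutation p = 0.1, adjusted 0.3). The other 4 ratios overlapped. Their differences were 0.705 for *EXPA8* over *XTH16*, 0.46 for *EXPA15* over *EXPA4*, 0.54 for *XTH16* over *EXPA4* and −0.076 for *EXPA15* over *XTH16*. Leaving out *bp er* replicate 2 gave 0.31 for *EXPA8* over *XTH16*, leaving out *bp er fil-10* replicate 3 gave 0.22 for *EXPA15* over *EXPA4*, and leaving out *bp er* replicate 1 gave 0.25 for *XTH16* over *EXPA4*.

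**Figure D2:**
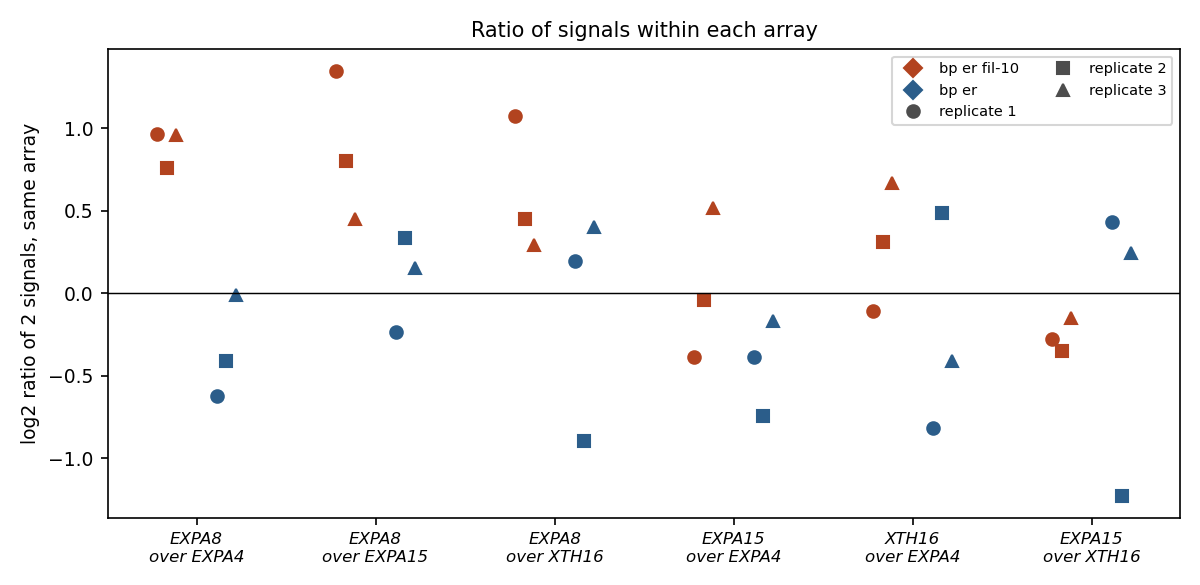
The log2 ratio of 2 signals on the same array (vertical axis) for the 6 pairs of genes, with *bp er fil-10* arrays left of *bp er* arrays in each pair and the marker shape giving the replicate number. For *EXPA8* over *EXPA4* the *bp er fil-10* arrays lie at 0.76 to 0.96 and the *bp er* arrays at −0.62 to −0.013.

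Replicate 3 was set against the mean of replicates 1 and 2 within each genotype, as a description with no test, since each genotype has 1 array of each number. In log2 units, *EXPA15* was higher on replicate 3 by 0.80 in *bp er fil-10* and by 0.30 in *bp er*, and *EXPA8* by 0.17 in *bp er fil-10* and by 0.40 in *bp er*. For *XTH16* the shift had opposite signs, 0.635 in *bp er fil-10* and −0.35 in *bp er*. *EXPA4* hardly moved, with 0.07 in *bp er fil-10* and −0.10 in *bp er*. Replicate 3 lay outside the other 2 arrays for *EXPA15* and *XTH16* in *bp er fil-10*, above them, and for *EXPA8* in *bp er*, also above. In 0 of the 4 genes did it lie above both other arrays in both genotypes, which held for 18.8% of all probe sets, and in 0 of 4 below both, which held for 18.1%. The middle of all probe sets did not shift, with a median of 0.02 in *bp er fil-10* and −0.01 in *bp er*, while their quartiles were −0.24 and 0.285 in *bp er fil-10* and −0.34 and 0.27 in *bp er*. The shifts of *EXPA15* and *XTH16* lay outside these quartiles in both genotypes, in *bp er* by a small margin, that of *EXPA8* lay outside them in *bp er*, and those of *EXPA4* lay within them in both.

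**Figure D3:**
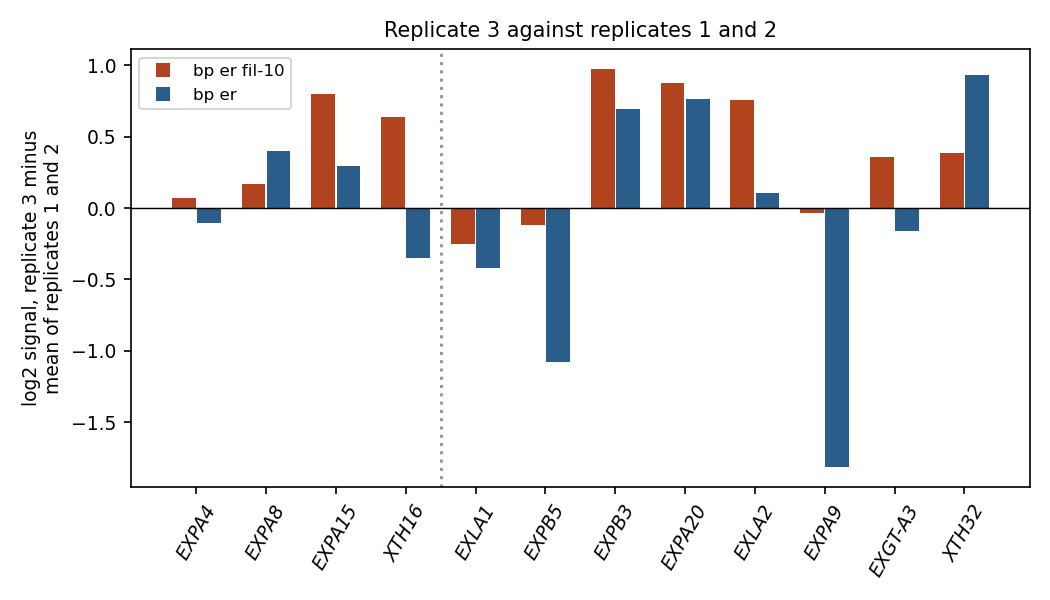
Log2 signal of replicate 3 minus the mean of replicates 1 and 2 (vertical axis), 1 bar for *bp er fil-10* (left of each pair) and 1 for *bp er*, for the 4 genes (left of the dotted line) and for the other 8 expansin and XTH genes kept. *EXPA15* has 0.80 and 0.30, *XTH16* has 0.635 and −0.35, and the largest bar is that of *EXPA9* in *bp er*, at −1.81.

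The wider families were taken by symbol from the gene table, 37 expansin and expansin-like genes and 33 XTH genes. Of these 19 and 10 had a probe set of their own here, and 9 and 3 passed the minimum signal. Of the expansins kept, 6 had a lower mean in *bp er fil-10* and 3 a higher one, with a median log2 difference of −0.16, against 0.06 over all probe sets kept, where 56.4% were higher. Limma called 0 of the 12 genes kept, where 0.00692% of all probe sets were called. At an unadjusted p under 0.05 in limma there were 3 of the 12, against 16.8% of all probe sets. With the block 1 was called higher, *EXPA8*, and 1 lower, *EXPB5*, where 3.74% of all probe sets were called. The lists too were chosen with earlier results known, so no excess can be read from these counts.

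*EXPB5* (AT3G60570), a beta-expansin gene known in *Arabidopsis* for its expression in pollen, had the largest difference of the 12. Its signal was 317.1, 240.6 and 254.5 in *bp er fil-10*, against 715.0, 691.7 and 333.0 in *bp er*. All *bp er fil-10* arrays lay below all *bp er* arrays, of which replicate 3 was the lowest. The log2 difference was −1.03 (SE 0.30; limma adjusted p = 0.173, and 0.0454 with the block). It was −1.35 without both replicate 3 arrays, where it passed (limma adjusted p = 0.00267), as did 690 probe sets that were higher and 696 that were lower. The study lists *EXPB5* among its genes lower in *bp er fil-10*, from the same arrays. *EXPA4*, which was also lower in every pair, is likewise known from pollen. Of 29 genes listed as markers of mature pollen, 4 were kept here, and all 4 had a lower mean in *bp er fil-10* (median log2 difference −0.29). Of all probe sets kept, 56.4% had a higher mean there. Limma called 0 of the 4, where 0.00692% of all probe sets were called. Free of overlap were 0 of the 4, against 14.2% of all probe sets with *bp er fil-10* above and 9.13% with it below. Each of the 4 markers was lower in *bp er fil-10* in the pairs of replicates 1 and 2. In the pair of replicate 3 each was higher, by 0.34 to 1.115 on a log2 scale, and *EXPA4* and *EXPB5* were lower by 0.38 and 0.39. Within *bp er*, replicate 3 minus the mean of replicates 1 and 2 was −1.70 to −0.29 for the 4 markers. It was −1.08 for *EXPB5* and −0.10 for *EXPA4*. Within *bp er fil-10* it was −0.05 to 0.91 for the markers, −0.12 for *EXPB5* and 0.07 for *EXPA4*. The summed signal of the 4 markers was 456 to 678 in *bp er fil-10*, highest on replicate 3, and 442 to 842.5 in *bp er*, lowest on replicate 3. In bulk inflorescences, fewer cells of a type cannot be told apart from less RNA per cell, and the part of the pollen content in the signal of *EXPA4* and *EXPB5* was not tested.

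The other expansins kept overlapped between the genotypes. *EXPB3*, a beta-expansin, had 578.0, 489.4 and 1044.8 in *bp er fil-10*, against 753.8, 534.0 and 1024.6 in *bp er*, a log2 difference of −0.16 (SE 0.32). Here replicate 3 was the highest array in both genotypes. The expansin-like genes *EXLA1* and *EXLA2*, related to expansins by sequence, differed by −0.16 (SE 0.23) and 0.28 (SE 0.32), and *EXLA2* by 0.03 without *bp er fil-10* replicate 3 and by 0.035 without *bp er* replicate 1. *EXPA20* and *EXPA9* lay near the minimum signal. Once every signal under 100 was raised to that value, they differed by −0.095 and 0.10, against −0.33 and 0.43 as deposited, and *EXPA9* had a signal of 51.0 on *bp er* replicate 3, beside 164.5 and 195.3 on the other *bp er* arrays.

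Among the XTH genes, *XTH16* was joined by *XTH32* (AT2G36870), with a difference of 0.06 (SE 0.30), and *EXGT-A3* (AT2G01850, also *XTH27*), with 0.015 (SE 0.17) and a 95% interval of −0.37 to 0.40. All 3 means were higher in *bp er fil-10* as deposited and lower after quantile normalization or with arrays centred on their median. Quantile normalization gave −0.015 for *XTH16*, −0.005 for *XTH32* and −0.011 for *EXGT-A3*. For *XTH32* replicate 3 was the highest array in both genotypes, with 525.7 in *bp er fil-10* and 649.3 in *bp er*. In all, replicate 3 was highest in both genotypes for 3 of the 12 genes kept, *EXPB3*, *EXPA20* and *XTH32*, and lowest in both for 0. Over all probe sets kept these shares were 18.8% and 18.1%.

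**Figure D4:**
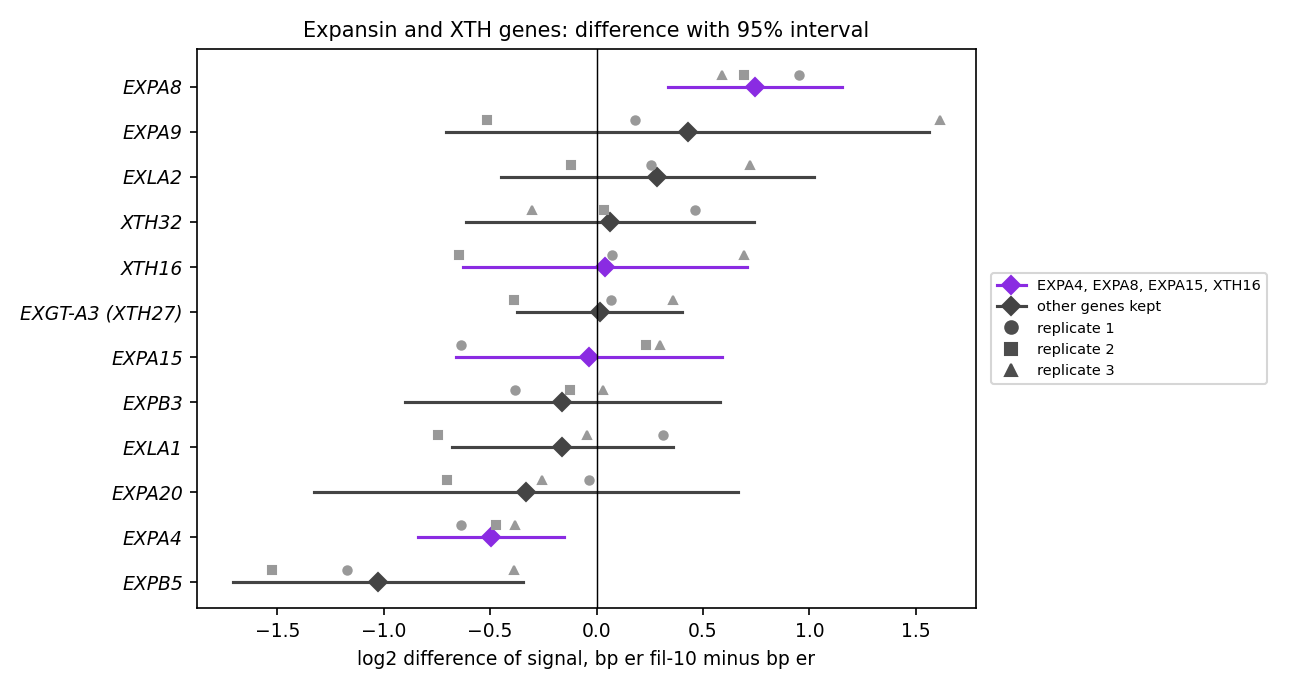
Log2 difference of signal, *bp er fil-10* minus *bp er* (horizontal axis), of the 12 expansin and XTH genes kept, with limma's 95% interval as a line, and in grey the differences of arrays with the same replicate number. The intervals of *EXPA8* (0.335 to 1.15), *EXPA4* (−0.84 to −0.15) and *EXPB5* (−1.71 to −0.35) do not reach 0, before adjustment.

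The other 17 measured genes of the families did not pass the minimum. The root hair expansin genes *EXPA7* and *EXPA18* were at or under 27.9 in *bp er fil-10* and at or under 63.5 in *bp er*. *EXLA3*, an expansin-like gene, had 31.6 to 62.5 in *bp er fil-10*, against 69.0 to 95.2 in *bp er*, with no overlap. *XTH26*, at or under 11.4 on every array, did not overlap either, also with *bp er fil-10* below. Among all probe sets kept this held for 9.13%. Both genes were picked after their values were seen, both lay under 100 on every array, and neither differed once signals were raised to 100. *EXPB1* had 67.3, 77.7 and 85.2 in *bp er fil-10*, against 129.3, 84.2 and 123.7 in *bp er*. *XTH19*, another gene of the study's lower list, had 17.8, 36.3 and 76.9 in *bp er fil-10*, against 57.6, 7.7 and 201.2 in *bp er*, with overlap.

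Genes that act on the same wall polymer were few with a name here. Of 16 genes for xyloglucan synthesis and trimming 4 were kept, all of the CSLC family of glucan synthases that make the xyloglucan backbone, and 2 were higher and 2 lower on average, with 0 called (0 at an unadjusted p under 0.05 by limma). *CSLC5* had 289.1, 413.1 and 422.9 in *bp er fil-10* and 485.4, 376.1 and 631.6 in *bp er*, a log2 difference of −0.40 (SE 0.24). Of 46 pectin modification genes 5 were kept, 4 of them higher and 1 lower on average, 2 of the 4 by 0.005 or less, with a median difference of 0.005 and 0 called (0 at an unadjusted p under 0.05). Of all probe sets kept, 56.4% were higher on average, limma called 0.00692%, and 16.8% had an unadjusted p under 0.05. The lists of cellulose synthesis, of arabinogalactan proteins and extensins, and of proton pumps and water channels had 0 genes named here.

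The genes closest to each of the 4 in pattern were found by Pearson correlation of log2 signals over the 6 arrays, among 7834 other named probe sets, as a description only, since with 6 arrays many probe sets come close by their genotype difference or by 1 array. For *EXPA8* they were *AT1G27900* (r = 0.994), *AT3G24450* (0.994) and *AT1G22930* (0.987), and 116 probe sets were over 0.9. *EXPA4* was followed by the chloroplast ribosomal protein gene *rpl22* (0.985), *AT5G19750* (0.984) and *AT1G63310* (0.98), with 130 over 0.9. For *EXPA15* the closest were *AT5G35680* (0.971), *AT2G23300* (0.967) and *AT4G39300* (0.966), with 65 over 0.9, and for *XTH16* *AT3G58180* (0.983), *AT4G11030* (0.98) and *AT2G47440* (0.974), with 17. Between the 4 genes themselves the correlation was −0.78 for *EXPA4* with *EXPA8* and between −0.25 and 0.24 for the other pairs.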

How the data were processed

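Total RNA of inflorescences was reverse transcribed, amplified and labelled with biotin, and hybridized to Affymetrix ATH1 arrays. The deposited values are MAS signal intensities, which the authors extracted with GCOS (version not given in the sources used here) and scaled linearly to a target of 500; detection calls were not used here. After leaving out 64 control probe sets, 22746 remained. Intensities were converted to log2 (1 signal of 0 was set to 0.1), and 14456 probe sets that reached a signal of 100 on 3 or more arrays were kept. Genotypes were compared with limma 3.58.1 in R 4.3.3 (lmFit and eBayes with an intensity trend, 2-sided, Benjamini-Hochberg adjustment over all probe sets kept, threshold 0.05), a script tested on simulated data. The number of arrays limits the precision. The methods sorted genes by fold change and name no test.

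Arrays that share a replicate number had deviations from the means of the genotypes that correlated at 0.103 (replicate 1), 0.221 (replicate 2) and 0.38 (replicate 3). All were over the limit of 0.1, replicate 1 only just. Some arrays of unlike number passed it as well, so the limit does not show that the arrays are paired. The main fit had genotype alone, and the replicate block was an alternative beside it. Replicate 3 alone was closest to its own number in both genotypes: *bp er fil-10* replicate 1 correlated more with *bp er* replicate 2 (0.225), and *bp er fil-10* replicate 2 at 0.183 with *bp er* replicate 1, above the value within replicate 1. The calls of *EXPA8* and *EXPB5* with the block rest on pairing the arrays by replicate number. Alternatives covered the filter, low signals, a pseudocount of 16, normalization, moderation, the replicate block and leaving out arrays.

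Names came from the annotation of 14016 probe sets (13513 with 1 gene, 503 with several) and the TAIR10.1 gene table. Genes with no probe set named there were not analysed here. No coordinates are given because the array data name no genome build. The members and gene lists were chosen with earlier results of these data known. Named are the 4 members, every expansin and XTH gene kept, up to 2 genes of each other list with the smallest p, and the 3 closest patterns per member. The other genes named (*GID1A*, *EXLA3*, *XTH26*, *EXPA7*, *EXPA18*, *EXPB1*, *XTH19*, *UFO* and *CLV3*) were chosen after their values were seen. Tables were made in Python 3.11.15 (numpy 2.4.6, pandas 2.3.3, scipy 1.17.1).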

Additional observations from a re-analysis of the deposited data

How the results depend on the processing

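The difference of *EXPA8* stayed positive (0.65 to 0.88) and that of *EXPA4* negative (−0.575 to −0.40) under every alternative tried. *EXPA8* passed the threshold, among these alternatives, only with the replicate block (0.74) and, an alternative chosen after the data were seen, without both replicate 3 arrays (0.82). *EXPA4* passed under none, with adjusted p between 0.0576 and 0.493. The replicate block changed no other call of the expansin and XTH genes kept but that of *EXPB5*. *EXPA15* reversed when 1 array was left out, with values from −0.30 to 0.14. *XTH16* reversed after quantile normalization (−0.015), with arrays centred on their median (−0.039), without both replicate 3 arrays (−0.288), and with 1 array left out (−0.17 to 0.34). Of the other family genes, *XTH32* reversed after quantile normalization (−0.005) and centring (−0.014), and with 1 array left out ran from −0.13 to 0.38. *EXGT-A3* reversed after quantile normalization (−0.011), after centring (−0.064) and without both replicate 3 arrays (−0.158), with a range of −0.105 to 0.118 when 1 array was left out. *EXLA2* kept its sign, from 0.03 to 0.55 with 1 array left out and at 0.07 without both replicate 3 arrays. *EXLA1*, *EXPB3* and *EXPA9* reversed when 1 array was left out (−0.35 to 0.025, −0.485 to 0.07 and −0.18 to 0.79), and *EXPA9* without both replicate 3 arrays (−0.166). The ratio of *EXPA15* over *XTH16* also reversed without both replicate 3 arrays (0.085), with −0.60 to 0.23 when 1 array was left out, and the ratio of *EXPA8* over *EXPA4* differed by 1.103 to 1.408, of *EXPA8* over *EXPA15* by 0.54 to 0.99 (1.02 without both replicate 3 arrays), of *EXPA8* over *XTH16* by 0.31 to 0.95 (1.11), of *EXPA15* over *EXPA4* by 0.22 to 0.67 (0.35) and of *XTH16* over *EXPA4* by 0.25 to 0.90 (0.27). Over all probe sets 0 were called higher and 1 lower by limma. With the replicate block 232 and 308 were called, without both replicate 3 arrays 690 and 696, with signals under 100 raised to 100 1 and 17, with arrays centred on their median 1 and 14, with robust eBayes 1 and 15, with log2(signal + 16) 0 and 6, with signals of at least 100 on all 6 arrays 0 and 0, and with 1 array left out 0 to 41 higher and 1 to 82 lower, most without *bp er fil-10* replicate 3. The causes were not tested. *EXPA20* reached a signal of 100 on 3 of the 6 arrays. *EXPA9* was under 100 on *bp er* replicate 3 alone, at 51.0, and without that array its difference was −0.18. The part of low signal in their differences was not tested either.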

Other observations

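The gibberellin receptor genes, which act upstream of wall loosening in growth, were the kept members of a list of 45 brassinosteroid and gibberellin genes. All 3 had a higher mean in *bp er fil-10*, as 56.4% of all probe sets kept had, with a median log2 difference of 0.76. Limma called 0 of the 3, where 0.00692% of all probe sets were called. At an unadjusted p under 0.05 in limma there were 0, against 16.8% of all probe sets. *GID1C* had 178.6, 181.3 and 103.9 in *bp er fil-10*, against 115.7, 100.7 and 59.9 in *bp er*, so that it was higher in 3 of 3 pairs while the genotypes overlapped (adjusted p from limma 0.369, and 0.274 with the replicate block). With signals under 100 raised to 100 its difference was 0.51. *GID1B* had 139.5, 87.6 and 115.1 in *bp er fil-10*, against 38.9, 36.8 and 128.9 in *bp er*, and its difference of 0.98 was 0.11 with signals raised to 100. *GID1A*, named after its values were seen, was lowest on replicate 3 in both genotypes, with 255.7 in *bp er fil-10* and 181.8 in *bp er*.

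There were 2 probe sets shared by 2 expansin genes each, from which no gene is named. The brighter had 22.5, 68.4 and 11.9 in *bp er fil-10*, against 290.4, 231.9 and 65.0 in *bp er*. It was lower in *bp er fil-10* in 3 of 3 pairs, overlapped between the genotypes, and did not pass the minimum for testing.

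Other cell type markers were sparse. In the tapetum and pollen wall list, *SPL* (*SPOROCYTELESS*), a regulator of sporogenous cells, had 121.5, 196.5 and 194.3 in *bp er fil-10*, against 45.4, 104.8 and 82.4 in *bp er*. The genotypes did not overlap and *SPL* was not called (limma adjusted p = 0.225), with a difference of 1.19, or 0.715 with signals raised to 100. *AMS*, the other of 2 genes kept from that list, differed by −0.04. *RCA*, the Rubisco activase of green tissue, had a lower mean and no overlap, with 14764.7, 11323.5 and 15987.9 in *bp er fil-10* against 16242.5, 17558.7 and 21494.6 in *bp er*, and was not called (limma adjusted p = 0.278). The marker lists of late stamens and petals, of the epidermis and of roots had 0 genes named here. The part of these markers in the signals of *EXPA4* and *EXPA8* was not tested.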
